A study of Zea mays with 4 samples.

Results

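Transcript assembly from RNA reads finds transcribed regions that lie outside the gene models of a genome annotation. The authors' table of maize leaf transcript levels gave such regions a name beginning with Novel_ in place of a gene name. Of 30378 loci in the table, 3431 carried such a name, and 1988 of these reached 1 FPKM or more in at least 2 of the 4 libraries and are described here. FPKM is a level corrected for transcript length and for the number of fragments mapped in that library. The rule set a floor on the level, but with 2 libraries in each group a locus could reach it through 1 group alone. Of the 1988, 31 were listed at 0 in both HN libraries and 13 in both LN libraries, so that their difference between the groups let them in. Loci with a span of 250 bp or less, 92 of the 1988, are given apart, and the other 1896 are called the longer Novel_ loci. The comparison set is the 20501 loci with a gene name that passed the same floor, called the annotated loci. Counting all values under 1 FPKM, 137 longer Novel_ loci (7.23%) had both HN values there and 83 (4.38%) both LN values. Among the annotated loci these shares were 2.46% and 1.53%. Of the loci of 250 bp or less, 3 and 1 were of this kind. All of these passed the floor only through the other group.

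The libraries were made from the elongation zone of leaf 6 of maize inbred B73, the line of the maize reference genome, grown in hydroculture. The low-nitrogen group (LN) had 2 libraries, with nitrogen at 0.04 mM, and the control group (HN) had 2 libraries, with nitrogen at 4 mM. One label of the HN samples writes nM for this dose and another mM, and mM was used. The labels do not state whether replicates are separate plants, so the p-values reflect only how far these libraries differ, which may be technical. 

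Absolute sequencing depth is unknown, since the table holds no counts. HN1 and HN2 stand for the first and second HN column, which carry the same name. Relative depth was judged from loci with very low FPKM in LN1 and in the other library, taken as a single read in each. By the most common ratio of these values, LN2 had 91.7%, HN1 75.8% and HN2 64.3% of the depth of LN1. These estimates rest on 154, 101 and 55 loci. The libraries of a pair differed more in HN than in LN. For the longer Novel_ loci the median absolute difference on the log2(FPKM + 1) scale was 0.23 between LN1 and LN2 and 0.49 between HN1 and HN2. For the annotated loci these differences were 0.14 and 0.39. As a check of the labelled tissue, the expansin gene expB8 stood at 135 and 152 FPKM in LN and at 163 and 188 FPKM in HN. The meristem gene kn1 was listed at 0 in both LN libraries and at 0.0507 and 0.0715 FPKM in HN. All 3 genes listed for the mature photosynthetic blade were lower in LN. The carboxylase gene pep1 stood at 5.86 and 6.50 FPKM in LN and at 50.6 and 55.6 FPKM in HN. The light-harvesting gene lhcb4 had 7.78 and 10.4 FPKM in LN and 39.5 and 27.0 FPKM in HN, and the Rubisco activase gene rca1 had 2.74 and 1.73 FPKM in LN and 13.0 and 10.2 FPKM in HN. The root hair gene rth3 was at 4.40 and 3.50 FPKM in LN and at 5.44 and 11.1 FPKM in HN. The part of this in the results on nitrogen supply was not tested.

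Regions of this kind can be unlisted genes, long noncoding RNAs, transposon transcripts, antisense transcripts, or pieces of a gene model's ends that the annotation had left out. Plant genomes as rich in transposons as that of maize yield many of them. Which of these any Novel_ locus is was not analysed here, and the table gives no strand or exon structure.

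Novel_ loci were short compared with annotated loci. The median span of all 1988 was 1148 bp, with quartiles at 475.8 and 2990 bp, against a median of 4347 bp in annotated loci. Of the Novel_ loci, 21.6% spanned 251 to 500 bp, a class that held 0.746% of the annotated loci. At the other end, 14.4% of Novel_ loci and 42.5% of annotated loci spanned over 5000 bp. A span is that of the deposited region. In 132 longer Novel_ loci the same region was also given to another locus, which was annotated for 62 of them and only Novel_ for the other 70, so the span of these is not that of one transcript. All positions are those of the deposited loci in B73 RefGen_v3.

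Every chromosome carried Novel_ loci. Their number ran from 139 on chromosome 9 to 276 on chromosome 1, and their share of all loci at the floor was lowest on chromosome 5, at 7.64%, and highest on chromosome 10, with 150 Novel_ loci beside 1344 annotated ones. The gap to the nearest annotated locus of the table had a median of 13410 bp over the 1923 Novel_ loci that overlapped none. Of all 1988, 17.6% lay within 1 kb of an annotated locus without overlap, 31.8% lay 20 to 100 kb and 8.9% over 100 kb away, and 65 overlapped one. In 62 of these 65 the overlap was a shared region, and in the other 3 it was a single base at the end.

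**Figure D1:**
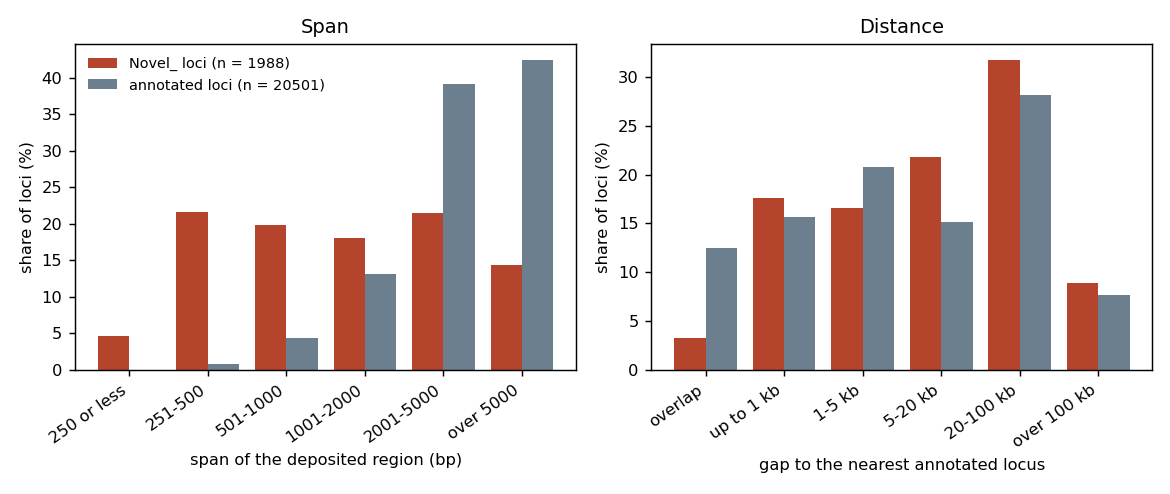
Bars give the share of the 1988 Novel_ loci and of the 20501 annotated loci (vertical axes, %) in classes of span in bp (left) and of gap to the nearest annotated locus of the table (right). Novel_ loci are spread over the shorter spans, with 21.6% at 251 to 500 bp, while 42.5% of annotated loci span over 5000 bp.

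The 4 loci farthest from any annotated locus lay on chromosomes 7 and 2. Novel_3192 (chromosome 7, 66546488 to 66551775) was 1172600 bp from its nearest annotated locus, GRMZM2G052105. Its level was 27.1 and 29.0 FPKM in LN and 87.6 and 83.6 FPKM in HN. It fell by 1.58 on the log2(FPKM + 1) scale (standard error 0.20, adjusted p = 0.0431 by limma). GRMZM2G052105 itself stood at 2.71 and 5.12 FPKM in LN and at 11.7 and 18.4 FPKM in HN, a log2 change of -1.72 (adjusted p = 0.0535 by limma). Novel_3408 (66726757 to 66728012), next along the same stretch of chromosome 7, had 0.417 and 0.305 FPKM in LN and 1.53 and 1.59 FPKM in HN, a log2 change of -0.91 (adjusted p = 0.0643 by limma). Novel_3409 (66995949 to 66996365), with 6.11 and 6.91 FPKM in LN and 8.95 and 1.48 FPKM in HN, overlapped between the groups. Novel_946 (chromosome 2, 96971907 to 96973593), 578199 bp from GRMZM2G108609, likewise overlapped, with 1.72 and 1.32 FPKM in LN and 0.426 and 1.4996 FPKM in HN. The authors' deposited table gave Novel_3192 and Novel_3408 q-values of 1.96e-06 and 0.00278, and Novel_3409 and Novel_946 0.996 and 0.689.

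Most Novel_ loci were weakly expressed. The median level of the longer ones was 4.53 and 4.96 FPKM in LN and 3.83 and 3.11 FPKM in HN, and 53.4% had a mean under 5 FPKM. The annotated loci had medians of 9.32 and 9.38 FPKM in LN and 8.91 and 8.82 FPKM in HN, and 31.7% of them had a mean under 5 FPKM. The longer Novel_ loci made up 9.11% and 9.68% of the summed FPKM of all loci in LN and 7.78% and 7.43% in HN. The floor kept Novel_2997, whose second highest value was 1.002 FPKM, and Novel_969, at 1.004 FPKM. It left out Novel_604 at 0.9999 FPKM and Novel_2105 at 0.9997 FPKM.

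Some Novel_ loci had FPKM among the highest of the table. Novel_657 (chromosome 10, 144524202 to 144525441) stood at 7892 and 8360 FPKM in LN and at 6456 and 13516 FPKM in HN. Novel_658, another of the 3 Novel_ loci given this region, stood at 5136 and 5102 FPKM in LN and at 4177 and 8373 FPKM in HN. For both loci the LN values lay between those of the HN libraries. Novel_657 and Novel_658 kept the same order in every library. How reads of a shared region were divided among its loci is not given in the sources used here. Their nearest annotated locus, GRMZM2G027056, lay 763 bp away at 2.82 and 2.41 FPKM in LN and 0.550 and 2.10 FPKM in HN.

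The other 4 longer loci with the highest mean were all under 500 bp. The longer Novel_ loci with a mean over 100 FPKM had a median span of 448 bp, against 1250 bp over all longer ones. FPKM of a locus about as short as a fragment depends on the length correction, and its part in these levels was not tested. Novel_3335 (chromosome 7, 1971069 to 1971404) had 2558 and 3278 FPKM in LN and 1898 and 3730 FPKM in HN, with overlapping groups. Novel_3626 (chromosome 8, 114974983 to 114975390) had 1738 and 2045 FPKM in LN, below the 4190 and 3367 FPKM in HN, a log2 change of -0.99 (standard error 0.73, adjusted p = 0.383 by limma). Novel_3283 (chromosome 7, 76032545 to 76032910) had 1551 and 1802 FPKM in LN, above the 998 and 1019 FPKM in HN, a log2 change of 0.73 (standard error 0.52, adjusted p = 0.369 by limma). Novel_1576 (chromosome 3, 157136529 to 157136887) lay 892 bp from GRMZM5G828312 and had 960 and 1204 FPKM in LN and 1218 and 1567 FPKM in HN (adjusted p = 0.661 by limma). None of the 6 longer loci with the highest mean FPKM passed the threshold in limma. Among them, the authors' deposited table gave a q-value under 0.05 to Novel_3626 (q = 0.0163). The nearest annotated loci of the first 3, GRMZM2G019879, GRMZM2G111411 and GRMZM2G020156, were 3610, 30789 and 104759 bp away.

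The 4 longest regions were held by loci of moderate level. Novel_2651 (chromosome 5, 91376003 to 91652397) spanned 276395 bp, a region given to 4 loci of the table. It stood at 22.9 and 25.9 FPKM in LN and at 10.6 and 2.11 FPKM in HN, without overlap but with a wide HN pair (log2 change 2.08, standard error 0.61, adjusted p = 0.0935 by limma). GRMZM2G364988, of the same region, had 26.1 and 27.8 FPKM in LN and 18.8 and 6.09 FPKM in HN. Novel_1570 (chromosome 3, 150432401 to 150653941) shared its region with no other locus and had overlapping groups, at 22.8 and 33.0 FPKM in LN and 24.9 and 23.6 FPKM in HN. Novel_2820 (chromosome 6, 68150024 to 68356884) had 13.8 and 13.0 FPKM in LN and 10.9 and 11.2 FPKM in HN. Novel_3872 (chromosome 9, 73727792 to 73926838) had 3.78 and 3.36 FPKM in LN and 5.09 and 16.2 FPKM in HN. Neither of the last 2 passed the threshold (adjusted p = 0.38 and 0.174 by limma), and their regions were shared with 1 and 9 other loci. The authors' deposited table gave Novel_2651 and Novel_3872 q-values of 0.0204 and 0.00395, and Novel_1570 and Novel_2820 0.692 and 0.859.

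The design set LN against HN to ask how nitrogen supply changes transcript levels. Of the 1896 longer Novel_ loci, 53 rose and 34 fell (limma adjusted p under 0.05 over all 22489 loci tested), so 60.9% of the calls were higher in LN. Over all loci tested, 1.18% were called higher and 3.8% lower, while the longer Novel_ loci had 2.8% higher and 1.79% lower. Of these calls, 32 of the 53 rises had both HN values under 1 FPKM and 15 of the 34 falls had both LN values under 1 FPKM, and such loci passed the floor only through the group where they were high. The other calls were 21 higher and 19 lower, so these counts are a description and not a test of direction. With the floor set on the mean over all 4 libraries, chosen after seeing the data, 26 longer Novel_ loci were called higher and 17 lower, and with no floor 0 and 0. In annotated loci 207 rose (1.01%) and 820 fell (4%), so 20.2% of the calls were higher. At an unadjusted p under 0.05, 467 longer Novel_ loci were higher and 215 lower, beside 15.9% higher and 16.4% lower over all loci tested and 15.1% and 16.9% over annotated loci. In the authors' deposited table, 176 of the longer Novel_ loci were called higher and 132 lower, and 1117 annotated loci higher and 2928 lower. Its background was 5.76% higher and 13.6% lower over all loci tested, and 5.45% and 14.3% over annotated loci. The LN and HN values did not overlap in 1209 longer Novel_ loci, or 63.8%, beside 66.4% of all loci tested and 66.8% of annotated loci.

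In bulk tissue, fewer cells of a type and less RNA per cell cannot be told apart. The split between higher and lower moved with the scaling. Under median-ratio scaling 65 longer Novel_ loci were higher and 64 lower, 50.4% higher, with 15.8% higher among the annotated calls. In each fit that called more than 0 longer Novel_ loci, their higher share lay above that of the annotated calls. These fits reuse the same libraries, and passing the floor through LN alone was more frequent in longer Novel_ than in annotated loci. The shares are thus a description. The number of calls rested on single libraries, with 650 higher and 260 lower without HN1, 264 and 114 without HN2, 13 and 6 without LN1, and 11 and 8 without LN2. A pseudocount of 0.1 FPKM left 10 higher and 3 lower.

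The median log2 change of the longer Novel_ loci was 0.29, with quartiles at -0.27 and 0.80, and 64.3% were positive. Annotated loci had a median of 0.057 and 53.8% were positive. Level and span both went with the change in the annotated loci, and the Novel_ loci lay above them in each level class. At a mean of 5 to 10 FPKM the median was 0.40 in the longer Novel_ loci and 0.17 in annotated loci. Above 100 FPKM the medians were -0.12 over 95 longer Novel_ loci and -0.79 over 1252 annotated loci. Depth also differed between the groups, as given above, and its part in these medians was not tested.

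**Figure D2:**
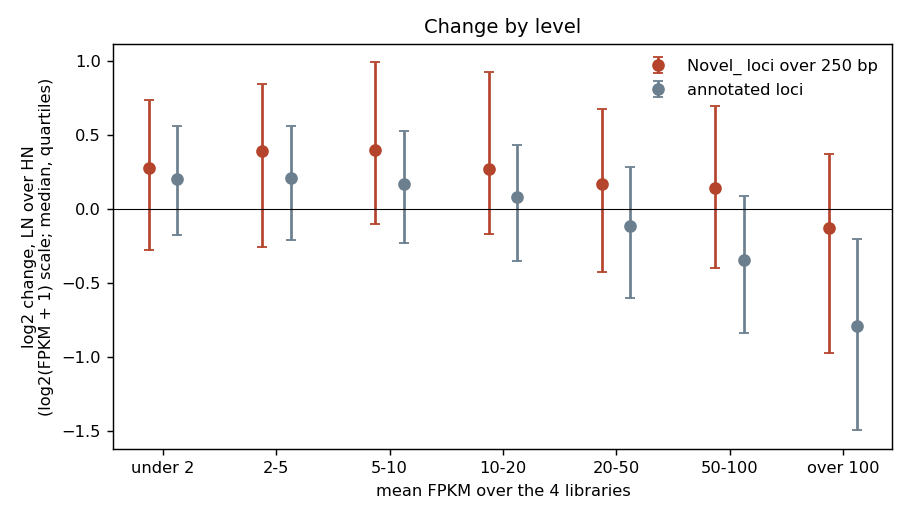
Points give the median log2 change of LN over HN on the log2(FPKM + 1) scale (vertical axis) and bars its quartiles, for classes of mean FPKM (horizontal axis), with the longer Novel_ loci left of the annotated loci in each class. The Novel_ medians lie above the annotated ones in all 7 classes, 0.28 against 0.21 under 2 FPKM and -0.12 against -0.79 over 100 FPKM.

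By span, the longest Novel_ regions had the largest positive medians. The 286 loci over 5000 bp had a median log2 change of 0.51, with 75.5% positive, and the 427 loci of 2001 to 5000 bp one of 0.42, with 76.3% positive. Most of the 132 Novel_ loci with a shared region were over 5000 bp, and their span is not that of 1 transcript. The 396 loci of 501 to 1000 bp had a median of 0.11. Annotated loci had medians of 0.18 over 5000 bp and -0.13 at 501 to 1000 bp. In the authors' deposited table, 55 of the 286 longest Novel_ loci were called higher and 9 lower, while annotated loci over 5000 bp had 6.83% called higher and 9.32% lower. limma called 4 of these 286 higher and 2 lower. From 251 to 2000 bp more of the deposited calls were lower than higher, in Novel_ and annotated loci alike. In Novel_ loci they were 9 higher and 22 lower at 251 to 500 bp, 22 and 42 at 501 to 1000 bp, and 35 and 39 at 1001 to 2000 bp, where limma called 21 and 13, 14 and 5, and 9 and 8. As shares, these deposited calls were 2.09% higher and 5.12% lower, 5.56% and 10.6%, and 9.8% and 10.9%. Annotated loci of these classes had 1.96% and 8.5%, 2.7% and 19.4%, and 4.25% and 22%. At 2001 to 5000 bp the deposited calls were 55 higher (12.9%) and 20 lower (4.68%), beside 4.73% and 16.6% of annotated loci, and limma called 5 and 6. In limma, the classes from 251 to 5000 bp had 1.17% to 4.88% of Novel_ loci higher and 1.26% to 3.02% lower. For annotated loci these shares were 1.06% to 1.35% and 4.5% to 6.54%.

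Calls were found on every chromosome. Median log2 changes by chromosome ran from 0.17 on chromosome 10 to 0.44 on chromosome 7. Calls per chromosome ran from 1 to 10 higher and from 1 to 10 lower. Chromosome 7 had 5.81% of its Novel_ loci called higher and 1.74% lower, beside 0.977% and 3.97% of its annotated loci. On chromosome 1 these were 1.81% and 3.62%, beside 0.966% and 3.71% of annotated loci. The 10 higher calls of chromosome 7 included 4 in 1 stretch of close Novel_ loci and 2 in another, both described below. Among these 10, Novel_3197, Novel_3257, Novel_3258, Novel_3422 and Novel_3503 had both HN values under 1 FPKM and passed the floor only through LN. By distance to the nearest annotated locus, the medians ran from 0.24 at 20 to 100 kb to 0.33 beyond 100 kb.

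Among the longer Novel_ loci, 6 of the 8 largest rises were listed at 0 in both HN libraries, so no fold is given for them. An entry of 0 in a table without counts can be a value that was not estimated. These 6 passed the floor only through LN, so their p-values are not independent of it. With no floor their adjusted p by limma ran from 0.0733 to 0.0765, and with the floor on the mean from 0.0132 to 0.0493. Novel_1593 (chromosome 3, 186093210 to 186095364) had 10.3 and 59.5 FPKM in LN (adjusted p = 0.0452 by limma). Novel_3197 (chromosome 7, 81049033 to 81049602) had 21.4 and 27.8 FPKM in LN (adjusted p = 0.0127 by limma). Novel_2865 (chromosome 6, 153404915 to 153406134) had the closest pair of LN values, 21.7 and 21.9 FPKM (adjusted p = 0.0111 by limma). The authors' deposited table gave these 3 q-values of 0.363, 0.752 and 0.353. Rounded, its log2 change and q-value for Novel_2865 were 4.046 and 0.353. The same were given to Novel_3051, at 3.64 and 3.33 FPKM in LN. Novel_3197 had 3.131 and 0.752, the same as Novel_2876 at 4.58 and 3.36 FPKM in LN. Novel_2788, Novel_3422, Novel_1671, Novel_2636 and Novel_3651 also had 3.131 and 0.752, at 1.40 to 3.91 FPKM in LN. Novel_2628, at 2.10 and 2.003 FPKM in LN, had 8.006 and 5.1e-10. In these loci, all listed at 0 in both HN libraries, the deposited values did not follow the FPKM. The number of reads behind each level is unknown.

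Novel_3068 (chromosome 6, 85151320 to 85151596) had 8.47 and 24.7 FPKM in LN (adjusted p = 0.0431 by limma), and Novel_2629 (chromosome 5, 72653175 to 72653684) had 5.85 and 7.85 FPKM (adjusted p = 0.0294 by limma). Novel_2876 (chromosome 6, 161684015 to 161701996), a region of 17982 bp, had 4.58 and 3.36 FPKM in LN (adjusted p = 0.0383 by limma). The authors' deposited table gave the first 2 of these q-values of 0.0492 and 5.64e-08 and Novel_2876 a q-value of 0.752. Novel_2628 (chromosome 5, 72630912 to 72632206), outside the rule for named loci, lies on the same side of GRMZM2G344205 as Novel_2629. It too was listed at 0 in both HN libraries and had 2.10 and 2.003 FPKM in LN.

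The other 2 rises had values above 0 in all 4 libraries. Novel_3296 (chromosome 7, 117259502 to 117259793) had 89.3 and 110.6 FPKM in LN and 14.0 and 11.4 FPKM in HN, a log2 change of 2.88 (standard error 0.22, adjusted p = 0.0294 by limma). Novel_1591 (chromosome 3, 185821658 to 185822395) had 29.1 and 34.1 FPKM in LN and 8.27 and 3.17 FPKM in HN, a log2 change of 2.39 (standard error 0.40, adjusted p = 0.0454 by limma). For both, the lower LN library stood above the higher HN library by a wide margin. The authors' deposited table gave 4 of the 8 rises a q-value under 0.05.

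The nearest annotated loci of these 8 did not pass the threshold where they could be tested. GRMZM2G445423, 194 bp from Novel_2876, had 1.36 and 1.20 FPKM in LN and 0.605 and 0.0973 FPKM in HN, a log2 change of 0.78 (adjusted p = 0.119 by limma). GRMZM2G050089, 4381 bp from Novel_1591, had 24.2 and 25.5 FPKM in LN and 20.5 and 25.1 FPKM in HN. GRMZM2G003165, 214306 bp from Novel_3197, had a log2 change of 1.15 (adjusted p = 0.0536 by limma). GRMZM2G112764, 169956 bp from Novel_3068, and GRMZM2G344205, 52353 bp from Novel_2629, had log2 changes of 0.11 and -0.98. GRMZM2G577191, GRMZM2G359892 and GRMZM2G160364, next to Novel_1593, Novel_2865 and Novel_3296 at 6186, 11846 and 9113 bp, did not reach the floor.

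The 8 largest falls among the longer Novel_ loci included strongly expressed regions of HN. Novel_91 (chromosome 1, 219455813 to 219456640) was listed at 0 in LN1 and stood at 5.07 FPKM in LN2, against 131 and 204 FPKM in HN. It fell by 6.06 on the log2 scale (standard error 0.83, adjusted p = 0.0437 by limma). Novel_3792 (chromosome 8, 146600100 to 146600736) was at 0 and 0.142 FPKM in LN and at 12.7 and 64.8 FPKM in HN, and it fell by 4.81 (standard error 0.72, adjusted p = 0.0446 by limma). Both LN values of Novel_3792 were under the floor, so it passed only through HN, and with no floor its adjusted p by limma was 0.0758. In Novel_91 and Novel_3792 the LN values lay far below the HN values, and the authors' deposited table gave them q-values of 2.55e-09 and 8e-14.

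Another 2 falls were listed at 0 in both LN libraries. Novel_4064 (chromosome 9, 68991023 to 68991273) had 12.6 and 44.5 FPKM in HN, and Novel_342 (chromosome 1, 61246126 to 61246397) had 16.3 and 3.76 FPKM in HN (adjusted p = 0.0431 and 0.0495 by limma). In the authors' deposited table their q-values were 0.0593 and 0.184. These 2 loci, like Novel_3792, passed the floor only through HN. With the floor on the mean over all 4 libraries, Novel_342 (adjusted p = 0.0553 by limma), Novel_2380 (0.0531) and the rise Novel_1591 (0.0504) no longer passed the threshold. Novel_4064 spans 251 bp, just over the span limit, as does Novel_1177 at 335 and 412 FPKM in LN and 309 and 349 FPKM in HN. Just under the limit, at 250 bp, Novel_3796 had 39.1 and 52.5 FPKM in LN and 78.4 and 100.1 FPKM in HN, and Novel_3358 was at 24.4 and 0 FPKM in LN and at 6.53 and 0 FPKM in HN.

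The remaining 4 falls had HN values between 4.87 and 38.3 FPKM. Novel_1381 (chromosome 2, 221546970 to 221547856) had 4.69 and 6.84 FPKM in LN and 29.7 and 38.3 FPKM in HN, and it fell by 2.38 (standard error 0.26, adjusted p = 0.0409 by limma). Novel_2797 (chromosome 6, 13181246 to 13182377) had 2.08 and 3.59 FPKM in LN and 17.1 and 16.0 FPKM in HN, and it fell by 2.22 (standard error 0.26, adjusted p = 0.0431 by limma). Novel_3134 (chromosome 6, 144802739 to 144803042) had 2.34 and 1.60 FPKM in LN and 14.1 and 17.8 FPKM in HN, and it fell by 2.52 (standard error 0.25, adjusted p = 0.0365 by limma). All 3 had LN pairs far under their HN pairs, with q-values under 0.05 in the authors' deposited table. Novel_2380 (chromosome 5, 16710616 to 16713956) had 1.07 and 0 FPKM in LN and 8.57 and 4.87 FPKM in HN (adjusted p = 0.0472 by limma, q = 0.146 in the authors' deposited table). GRMZM2G084891, given the same region, had 16.6 and 16.9 FPKM in LN and 14.97 and 15.4 FPKM in HN, a log2 change of 0.13 (adjusted p = 0.647 by limma).

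**Figure D3:**
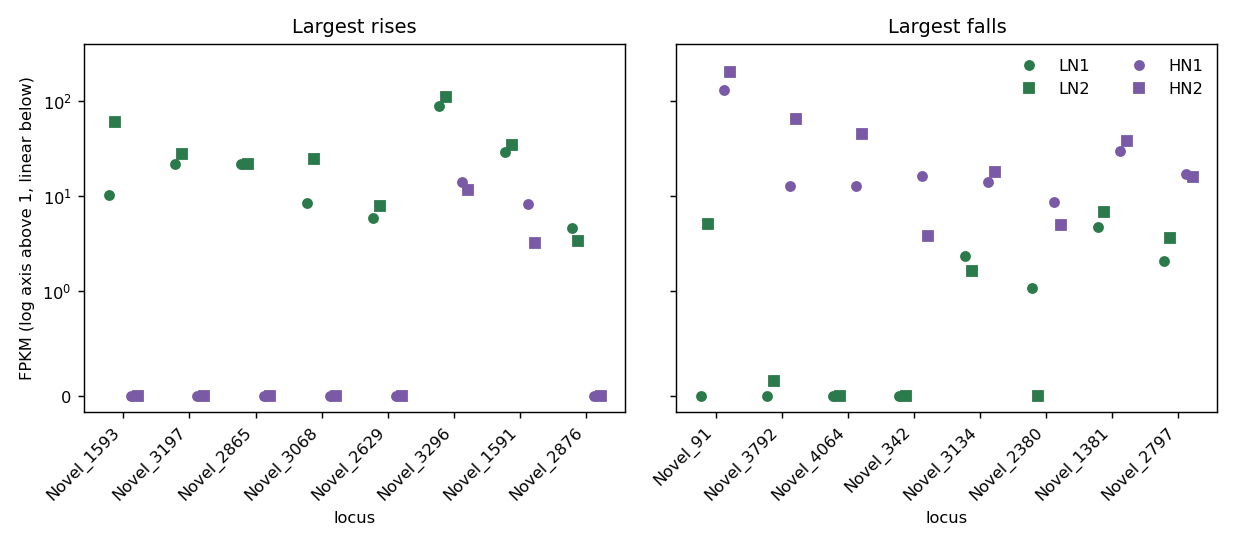
Each point is the FPKM of a library (vertical axis, logarithmic above 1 and linear below), for the 8 largest rises (left) and the 8 largest falls (right) among the longer Novel_ loci, with LN libraries left of HN libraries at each locus. In 6 of the 8 rises both HN points lie at 0, and in 2 of the 8 falls both LN points do.

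Of the annotated loci next to the falls, none of those tested passed the threshold. GRMZM6G986025, 2102 bp from Novel_2797, had 11.95 and 17.3 FPKM in LN and 6.89 and 1.45 FPKM in HN, a log2 change of 1.81 (adjusted p = 0.105 by limma), opposite in sign to its neighbour. GRMZM2G026311, 14707 bp from Novel_1381, and GRMZM2G146286, 18246 bp from Novel_91, had log2 changes of 0.048 and 0.31. GRMZM2G042797, 13121 bp from Novel_3134, and GRMZM2G086788, 47553 bp from Novel_342, stood at log2 changes of -0.80 and -1.15 (adjusted p = 0.171 and 0.0596 by limma). GRMZM2G171279 and GRMZM2G141605, next to Novel_3792 and Novel_4064 at 27712 and 35116 bp, did not reach the floor.

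Loci at 0 in both libraries of a group were more frequent among Novel_ loci. Of the 1988, 31 (1.56%) were listed at 0 in both HN libraries and 13 (0.654%) in both LN libraries, while of the annotated loci 14 (0.0683%) and 16 (0.078%) were. They made up 25 of the 59 Novel_ loci of all spans called higher and 8 of the 35 called lower. The authors' deposited table gave 5 of these 25 and 0 of these 8 a q-value under 0.05. The LN values of the 25 ran from 1.09 to 74.7 FPKM. Without such loci, 31 longer Novel_ loci were called higher and 27 lower, and the median log2 change of the longer Novel_ loci was 0.28.

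Some Novel_ loci lay close to each other, and most such neighbours had log2 changes of the same sign. Runs of 2 or more Novel_ loci with gaps under 1 kb, shared regions included, numbered 145 and held 318 loci, up to 5 in a run. The log2 changes of 145 adjacent pairs that did not overlap had a Pearson correlation of 0.636 and a Spearman correlation of 0.704, and 82.8% of the pairs had the same sign. The median gap of these pairs was 181 bp. Of all Novel_ loci at the floor 63.8% had a positive change, so unrelated pairs would also often share a sign. Nearest annotated pairs within 1 kb had a Pearson correlation of 0.0615, and 51.9% of them had the same sign. The pairs share libraries and so are not independent, and whether members of a run are pieces of 1 transcript was not tested. In all, 22 of the 94 called Novel_ loci of all spans stood in runs.

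The run with the most calls, picked out after its values were seen, lay on chromosome 7 and held 5 Novel_ loci over 3524 bp (117257038 to 117260561). Novel_3461 (chromosome 7, 117258863 to 117259099) had 337 and 307 FPKM in LN and 54.3 and 52.2 FPKM in HN, and it rose by 2.57 on the log2 scale (adjusted p = 0.0336 by limma). Novel_3462 (117259196 to 117259406) had 431 and 612 FPKM in LN and 141 and 129 FPKM in HN, and it rose by 1.92 (adjusted p = 0.0452 by limma). Both of these span 250 bp or less, and they lie beside Novel_3296, described above. Novel_3297 (117259890 to 117260561) had 8.97 and 9.16 FPKM in LN and 3.65 and 2.85 FPKM in HN, and it rose by 1.25 (adjusted p = 0.0459 by limma). Novel_3211 (117257038 to 117258765), the first of the run, had 12.9 and 8.52 FPKM in LN and 3.72 and 0.849 FPKM in HN, a log2 change of 1.96 (adjusted p = 0.0715 by limma). In all 5 loci both LN values exceeded both HN values, and the gaps between them measured 95 to 97 bp.

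**Figure D4:**
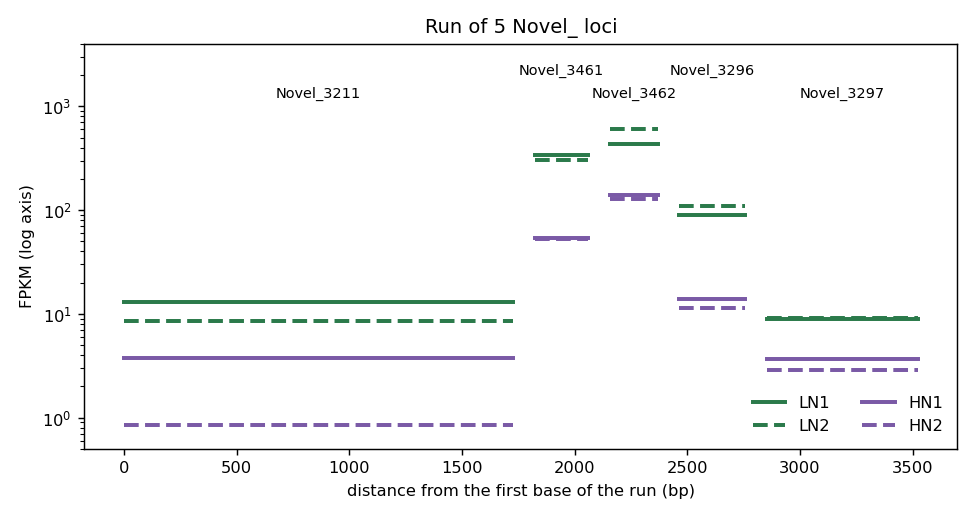
Horizontal lines give the FPKM (vertical axis, logarithmic) of each Novel_ locus of the chromosome 7 run in each library, drawn over the locus's extent in bp from the first base of the run (horizontal axis). The LN lines lie above the HN lines in all 5 loci. Novel_3462 has the highest FPKM, at 431 and 612 in LN and 141 and 129 in HN.

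Of 21 runs of 3 or more Novel_ loci, 13 had changes of 1 sign and the others were mixed, such as a run of 4 on chromosome 6 (141851643 to 141881359) with changes from -0.53 to 1.38. The runs described next were likewise picked out after their values were seen, from those of 1 sign. On chromosome 2, Novel_1294, Novel_1295, Novel_1080 and Novel_1296 (a run over 130333827 to 130336525) had log2 changes of -1.58, -1.48, -1.30 and -1.54. Of these, Novel_1295 passed the threshold in limma, at 8.51 and 11.2 FPKM in LN and 28.0 and 29.9 FPKM in HN (adjusted p = 0.0446 by limma). Novel_1296 had 128 and 162 FPKM in LN and 397 and 442 FPKM in HN (adjusted p = 0.0509 by limma). On chromosome 5, Novel_2775 to Novel_2779 (a run over 210042887 to 210048229) had negative changes in all 5 loci, from -2.50 to -0.58, and none passed in limma. The authors' deposited table called Novel_2775 and Novel_2778 lower, with q-values of 0.014 and 5.16e-04. On chromosome 7, Novel_3346, Novel_3257 and Novel_3258 (a run over 11438853 to 11444225) had changes from 1.25 to 1.34, and Novel_3257 and Novel_3258 rose (adjusted p = 0.0471 and 0.0446 by limma). Novel_3257 had 0.620 and 0.727 FPKM in HN and Novel_3258 0.673 and 0.615 FPKM, so both passed the floor only through LN. Their p-values are not independent of it.

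Log2 changes were also alike in sign between longer Novel_ loci and annotated loci less than 1 kb away. Over 268 such pairs with both loci at the floor, the log2 changes had a Pearson correlation of 0.35 and a Spearman correlation of 0.396, and 71.3% of the pairs had the same sign. For 1152 pairs with a gap over 1 kb these were 0.044, 0.0491 and 54.2%. Among annotated loci, 2619 nearest pairs within 1 kb had a Pearson correlation of 0.0615, and 51.9% had the same sign. Where a Novel_ locus and an annotated locus overlapped, the Pearson correlation was 0.411 over 55 pairs, and over 2039 overlapping annotated pairs it was 0.294. Pairs share their libraries, so these values are descriptions. Without HN2 the correlation within 1 kb was 0.218.

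**Figure D5:**
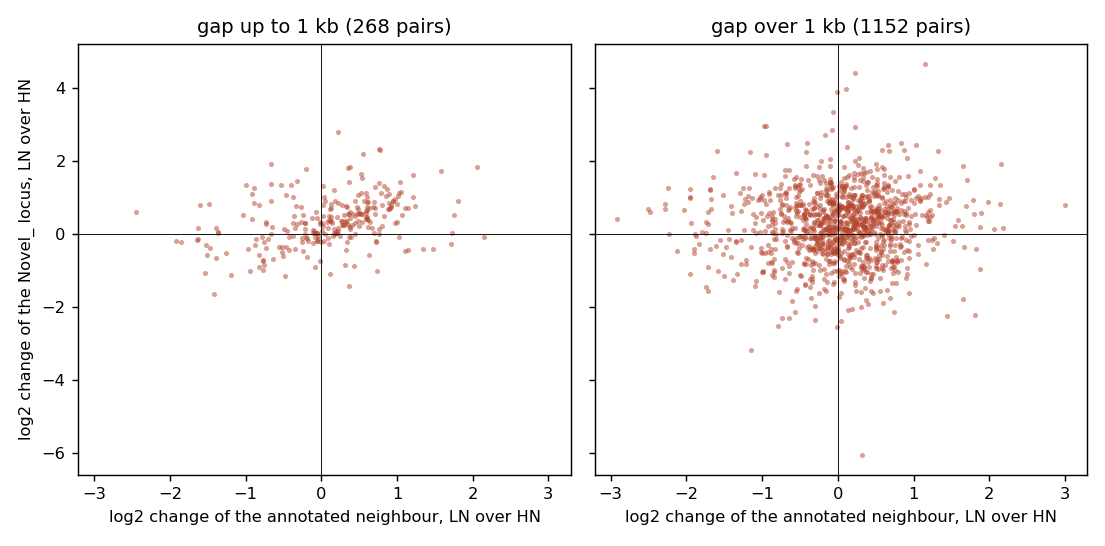
Each point is a longer Novel_ locus, with its log2 change of LN over HN (vertical axis) against that of its nearest annotated locus (horizontal axis), both on the log2(FPKM + 1) scale, for gaps up to 1 kb (left, 268 pairs) and over 1 kb (right, 1152 pairs). Points on the left lean along the diagonal (Pearson 0.35) and those on the right do not (Pearson 0.044).

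In level, Novel_ loci within 1 kb stood below their annotated neighbour by a median of 0.35 on the log2 FPKM scale, and those 20 to 100 kb away by 1.03. Of the 94 called Novel_ loci, 13 lay within 1 kb of an annotated locus. That neighbour could be tested for 6 of them, had a log2 change of the same sign in 4 and passed the threshold in 0.

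The 92 Novel_ loci of 250 bp or less had high and unsteady values. FPKM of loci this short depends on the length correction. Their median level was 49.3 and 58.2 FPKM in LN and 41.3 and 31.2 FPKM in HN, more than that of the longer loci in each library. Between libraries of a pair the median absolute log2 difference was 1.16 in LN and 1.63 in HN. In 41 of the 92, or 44.6%, a locus was listed at 0 in one library of a pair and above 0 in the other, against 9.18% of the longer Novel_ loci and 0.688% of the annotated loci.

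Of the short loci, 6 rose (6.52%) and 1 fell (1.09%) in limma, beside 1.18% and 3.8% of all loci tested. At a q-value under 0.05 in the authors' deposited table, 2 were higher (2.17%) and 4 lower (4.35%), beside 5.76% and 13.6%. The median log2 change of the short loci was 0.20, and without HN2 it was -0.23. Novel_1694 (chromosome 3, 48709847 to 48710065) had 74.7 and 73.9 FPKM in LN and was listed at 0 in both HN libraries (adjusted p = 0.00441 by limma, q = 0.237 in the authors' deposited table). Novel_2260 (chromosome 4, 145101142 to 145101381) had 29.0 and 10.9 FPKM in LN and was likewise listed at 0 in HN (adjusted p = 0.0409 by limma, q = 0.363 in that table). Novel_406 (chromosome 1, 137821235 to 137821479), the 1 fall, was listed at 0 in LN and had 15.7 and 9.35 FPKM in HN (adjusted p = 0.0294 by limma, q = 0.521 in that table). These 3 likewise passed the floor through 1 group alone. Their nearest annotated loci, GRMZM2G115875, GRMZM2G111756 and GRMZM2G177461, lay 85344, 166877 and 6790 bp away.

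The 4 short loci with the highest mean FPKM did not pass the threshold in limma. Novel_2021 (chromosome 4, 18245735 to 18245962) had 2290 and 4131 FPKM in LN and 5937 and 10276 FPKM in HN, a log2 change of -1.34 (standard error 1.04, adjusted p = 0.403 by limma). Novel_1294, the first of the chromosome 2 run, had 1214 and 998 FPKM in LN and 2953 and 3687 FPKM in HN (adjusted p = 0.153 by limma). Novel_1324 (chromosome 2, 171522665 to 171522908) had 418 and 986 FPKM in LN and 1301 and 1440 FPKM in HN (adjusted p = 0.251 by limma). In these 3 loci both LN values lay below both HN values, and the authors' deposited table gave q-values of 1.74e-04, 0.00275 and 0.00636. Novel_751 (chromosome 10, 19036792 to 19036995) had overlapping groups, at 924 and 1509 FPKM in LN and 1319 and 2184 FPKM in HN. Their nearest annotated loci were AC204611.4_FG001, GRMZM2G443740, the shared locus of GRMZM2G145944 and GRMZM5G847599, and GRMZM2G115579, at gaps from 2383 to 167388 bp.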

How the data were processed

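Levels came from 1 deposited RNA-seq table that holds, per the file headers, the authors' FPKM for each locus in 4 libraries. It also holds their LN over HN comparison as a deposited log2 change with a p-value and a q-value. TopHat2 and edgeR were used with B73 RefGen_v3, per the submitters' processing notes, which give no version. What assembled the transcripts is not given in the sources used here. Both HN columns carry the same name, so HN1 and HN2 denote the first and second of them and pair nothing with LN1 or LN2.

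Each locus ID was used once (30378 of 31324 rows). The test was limma-trend (limma 3.58.1, R 4.3.3) on log2(FPKM + 1), over the 22489 loci that reached 1 FPKM in 2 or more libraries. The model had a group term alone, and Benjamini-Hochberg adjustment ran over all of these loci with a threshold of 0.05. limma had 2 residual and 3.48 prior degrees of freedom. Fold changes on this scale understate those of low loci, and none is given against a group listed at 0. Span is end minus start plus 1, and a gap is the bases between 2 loci of the table. In 7 places regions overlap by exactly 1 base, so starts may be counted from 0.

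Members and classes were chosen with earlier results of these data known. Loci over 250 bp were named as the 8 largest rises and falls past the threshold without group overlap. To these were added the 6 highest in mean FPKM, the 4 longest and the 4 farthest from an annotated locus. Of shorter loci the 4 highest in mean FPKM and up to 2 rises and 2 falls were named. For each named locus its nearest annotated locus was named too. Alternatives changed the pseudocount, the floor, the scaling, the span limit and the libraries. No genome of this build was used, so no sequence is shown.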

Additional observations from a re-analysis of the deposited data

How the results depend on the processing

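Counts are of longer Novel_ loci called higher and lower in LN, 53 and 34 in the setting reported. A pseudocount of 0.1 FPKM gave 10 and 3, a floor of 5 FPKM 33 and 29, quantile normalization 122 and 100, median-ratio scaling 65 and 64, and a span limit of 500 bp 32 and 21. The authors' deposited table gave 176 and 132. Without a filter on low values, limma called 0 and 0, while 658 and 302 had an unadjusted p under 0.05. Among settings chosen after seeing the data, a floor of 1 FPKM on the mean over the 4 libraries gave 26 and 17, and leaving out loci at 0 in both libraries of a group left 31 and 27. Without 1 library the counts ran from 11 to 650 higher and from 6 to 260 lower. The spread then comes from 1 pair alone, and the lone library is assumed to vary like the others. For loci of 250 bp or less, 6 were higher and 1 lower. These became 6 and 2 with a floor of 5 FPKM and under median-ratio scaling, 13 and 2 under quantile normalization, 1 and 0 with no filter (11 and 8 with an unadjusted p under 0.05), 27 and 14 with a limit of 500 bp, 2 and 4 in the authors' deposited table, and 3 and 0 without loci at 0 in a group. Without 1 library they ran from 4 to 22 and from 4 to 9. The median log2 change of the longer loci ranged from 0.175 to 0.364 over the refits, and that of the short loci from -0.228 without HN2 to 0.61 without HN1.

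The correlation with annotated neighbours within 1 kb was 0.19 for gaps up to 5 kb and ran from 0.218 without HN2 to 0.357 without LN2 when 1 library was left out. Of 20 named loci called, 13 stayed called with a pseudocount of 0.1 FPKM, 1 without a filter, 17 with the floor on the mean, 14 without LN1, 14 without LN2, 20 without HN1 and 19 without HN2. Of those not called, Novel_658 and Novel_1576 changed sign under quantile normalization (0.60 and 0.225). When 1 library was left out, the log2 change ran from -0.735 to 0.331 for Novel_657, -0.71 to 0.293 for Novel_658, -0.365 to 0.609 for Novel_3335, -0.087 to 0.431 for Novel_1570, -0.408 to 1.599 for Novel_3409 and -0.683 to 0.492 for Novel_2997, and so changed sign. The cause was not tested for any of these. No paired analysis was possible because both HN columns carry the same name and so no replicate number. Loci of few reads are the least certain, and their depth is unknown.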
